A study of Arabidopsis thaliana with 6 samples.

Results

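The 4 protease genes of *Arabidopsis* described here were followed across the 6 arrays of the series: *DELTA-VPE* (AT3G20210), the subtilase genes AT4G21630 and AT1G20150, and the serine carboxypeptidase-like gene *SCPL20* (AT4G12910). Each was measured by 1 probe set that is assigned to this gene only, so that the group holds 4 of the 13286 genes with such a probe set, on arrays with 22746 probe sets besides the Affymetrix controls. The genes were chosen with the difference between the genotypes in view, on these same arrays. Their differences are therefore given as a description, with no test, and nothing rests on them. The class names come from the gene table for *DELTA-VPE* and *SCPL20* and from the functional classes of the study for the 2 subtilases. The study itself placed *SCPL20* among enzymes of acyl transfer in secondary metabolism and the other 3 under protein degradation.

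Total RNA came from inflorescences of 5-week-old plants, with floral stages 1 to 13, of *bp er fil-10* (labelled bp er fil) and of its parent *bp er*, with 3 arrays per genotype. Both genotypes carry the *brevipedicellus* and *erecta* mutations, in a KNOX homeobox gene and in a receptor kinase gene, and they differ by *fil-10*. This is a weak allele of the YABBY gene *FILAMENTOUS FLOWER* that was found after EMS mutagenesis of *bp er* as a suppressor of its short, bent pedicels and was then backcrossed repeatedly to *bp er*. The labels call the replicates biological but do not say how many plants each holds, and no array of a wild type or of *fil-10* alone was analysed here. Whole inflorescences were used, so that fewer cells of a type and less RNA per cell cannot be told apart. The annotation used here names no probe set for *FIL*, *BP* or *ER*, and the genotype of an array was not checked against them. Of the markers of floral cell types that were listed, the tapetum gene *A9* (AT5G07230) had a signal of 6253, 6567 and 8187 in *bp er fil-10* and of 5567, 4735 and 4782 in *bp er*. The *bp er fil-10* arrays lay above the *bp er* arrays, but the difference did not pass (0.47 on the log2 scale, limma adjusted p = 0.197). The other tapetum gene with a named probe set, *AMS*, overlapped between genotypes (−0.04, limma adjusted p = 0.956). The part of the tapetum in the results was not tested. No gene listed for leaf tissue or floral organ identity had a named probe set.

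Most plant proteases of these classes work outside the cytosol. Vacuolar processing enzymes (VPEs) are cysteine proteases of the legumain family that mature other vacuolar proteins, and *DELTA-VPE* is known for its role in the programmed death of inner integument cells in the developing seed coat. Subtilases are serine proteases related to bacterial subtilisin. They are made as precursors with an inhibitory propeptide, and most are secreted to the cell wall. Serine carboxypeptidase-like (SCPL) proteins share a fold in which some members remove amino acids from the carboxyl end of proteins and others have become acyltransferases of secondary metabolism. 

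The values are MAS signals, which give the hybridization of a probe set as a linear intensity, scaled by the authors to a target of 500 on each array. A log2 difference is the mean log2 signal of *bp er fil-10* less the mean of *bp er*. A signal under 100 was treated as low. Each probe set has its own response, so that signals were compared between arrays but never between genes.

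*DELTA-VPE* was the gene with the largest difference of the 4. Its signal was 409.8, 220.8 and 196.7 in replicates 1, 2 and 3 of *bp er fil-10*, and 900.2, 1027.0 and 958.4 in those of *bp er*. All *bp er fil-10* arrays lay below all *bp er* arrays, and the nearest pair was still 2.20-fold apart. The means were 276 ± 117 in *bp er fil-10* and 962 ± 63.5 in *bp er* (SD, n = 3 arrays each), a log2 difference of −1.88 (SE 0.27). Within *bp er fil-10* the replicate 1 array was the high one, 2.08 times the lowest, whereas in *bp er* the highest array was 1.14 times the lowest. The log2 SD was 0.57 in *bp er fil-10* and 0.10 in *bp er*. With 1 array left out the difference lay between −2.20 and −1.67, and the largest was reached without *bp er fil-10* replicate 1.

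The subtilase gene AT4G21630 was the steadiest of the 4. It had a signal of 238.8, 271.0 and 240.4 in *bp er fil-10* and of 526.9, 532.2 and 584.6 in *bp er*. The genotypes did not overlap, with a 1.94-fold gap between the nearest arrays, and within each genotype the arrays were close together. The means were 250.1 ± 18.1 in *bp er fil-10* and 548 ± 31.9 in *bp er* (SD, n = 3 each), a log2 difference of −1.13 (SE 0.15). The SD pooled within genotypes was 0.09 on the log2 scale, and 95.8% of the 14456 probe sets that reached a signal of 100 on 3 or more arrays had a larger one.

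*SCPL20* had a signal of 192.9, 227.6 and 233.4 in *bp er fil-10* and of 644.5, 525.3 and 552.3 in *bp er*. Here too the genotypes did not overlap, and the nearest arrays were 2.25-fold apart. The means were 218 ± 21.9 in *bp er fil-10* and 574 ± 62.5 in *bp er* (SD, n = 3 each), a log2 difference of −1.40 (SE 0.17). Its pooled log2 SD was 0.15, with a larger one in 82.3% of the probe sets tested. The replicate 1 arrays were the lowest of *bp er fil-10* and the highest of *bp er*, the reverse of *DELTA-VPE*, where replicate 1 was the highest of *bp er fil-10* and the lowest of *bp er*.

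The subtilase gene AT1G20150 was, alone among the 4, higher in *bp er fil-10*. Its signal was 193.2, 206.1 and 278.6 in *bp er fil-10* and 164.8, 85.5 and 44.7 in *bp er*. The genotypes did not overlap, but the lowest *bp er fil-10* array exceeded the highest *bp er* array by only 1.17-fold. The means were 226 ± 46.0 in *bp er fil-10* and 98.3 ± 61.1 in *bp er* (SD, n = 3 each), a log2 difference of 1.38 (SE 0.46). In *bp er* the highest array was 3.69 times the lowest, with 1 of the 3 arrays at 100 or above, and the pooled log2 SD of 0.69 was exceeded by 6.33% of the probe sets tested. With signals under 100 raised to 100 the difference was at least 0.92. Without *bp er* replicate 3 it was 0.91. The gene met the minimum signal through its 3 *bp er fil-10* arrays, which alone were enough.

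**Figure D1:**
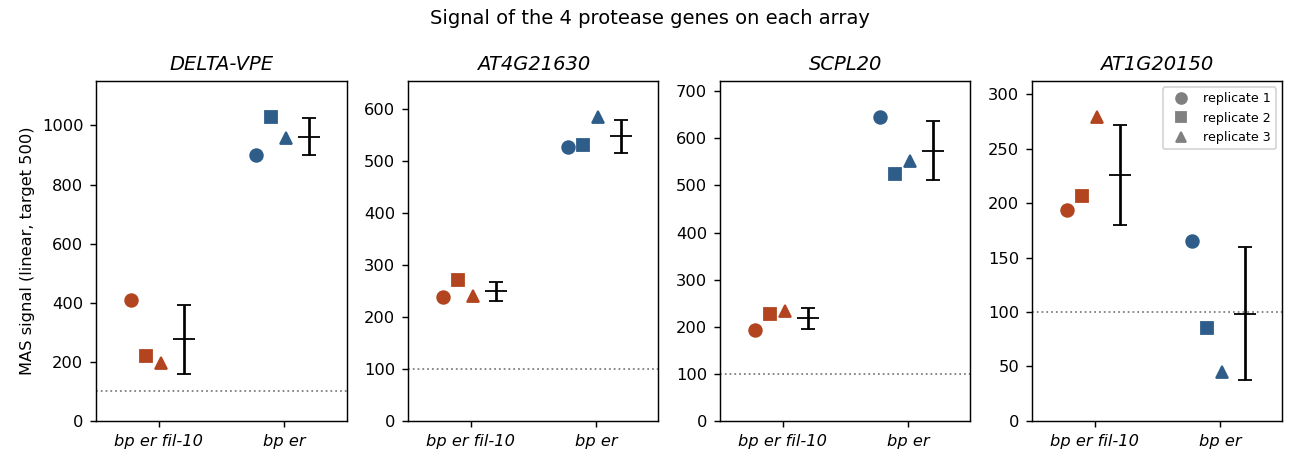
MAS signal (linear axis from 0) of the 4 protease genes on each array, with *bp er fil-10* in orange at the left and *bp er* in blue at the right of each panel; the symbol gives the replicate number, the black bars are the mean and SD of 3 arrays, and the dotted line is a signal of 100. *DELTA-VPE*, AT4G21630 and *SCPL20* lie lower on every *bp er fil-10* array, and AT1G20150 lies higher on every one but with a gap of only 1.17-fold.

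All 4 genes passed the minimum signal of 100 on 3 or more of the 6 arrays. Over all 14456 probe sets that passed, the *bp er fil-10* arrays all lay under the *bp er* arrays in 9.13% and over them in 14.2%. Since the 4 genes were chosen on this contrast, nothing is read from their lack of overlap. On the log2 scale 44 of these probe sets had a more negative difference than *DELTA-VPE*, 89 than *SCPL20* and 157 than AT4G21630, and 102 had a more positive one than AT1G20150.

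The same differences were formed between arrays of the same replicate number. For AT4G21630 they were −1.14, −0.97 and −1.28 for replicates 1, 2 and 3, and for *SCPL20* they were −1.74, −1.21 and −1.24. The 3 pairs lay closer together in these 2 genes than in the other two. *DELTA-VPE* differed by −1.14, −2.22 and −2.28, so that the pair of replicate 1 stood apart from the other two. AT1G20150 differed by 0.23, 1.27 and 2.64, the widest range of the 4, with the smallest difference again in replicate 1. Between the 2 subtilases the direction was opposite in each of the 3 pairs. Their lack of overlap fixed this for any pairing, so that nothing is read from it.

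**Figure D2:**
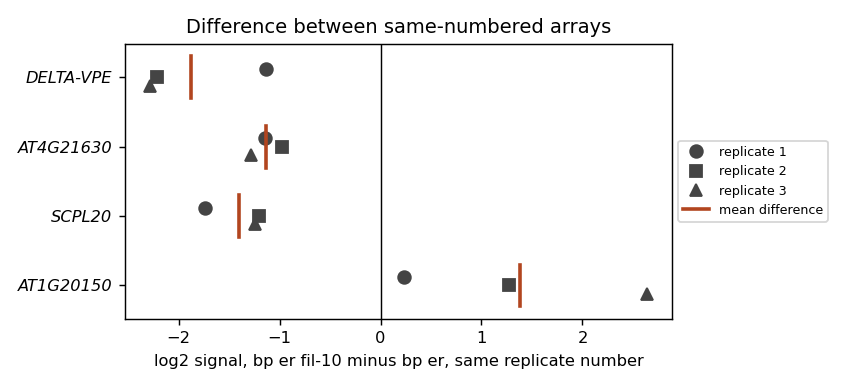
Log2 difference in signal, *bp er fil-10* minus *bp er*, between arrays of the same replicate number, with 1 row per gene; symbols give the replicate number and the orange line the mean difference. The 3 values of AT4G21630 lie between −1.28 and −0.97, whereas those of AT1G20150 lie between 0.23 and 2.64.

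After the genotype means were removed, the correlations between the genes took both signs. Over the 6 arrays the deviations of *DELTA-VPE* and *SCPL20* from their genotype means correlated at −0.80, those of AT4G21630 and *SCPL20* at 0.07, and those of *DELTA-VPE* and AT4G21630 at −0.31. For AT1G20150 the values were −0.29 with *DELTA-VPE*, −0.61 with AT4G21630 and 0.64 with *SCPL20*. These are descriptions over 6 arrays that all genes share.

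Among the named genes that passed the minimum signal, the most alike to *DELTA-VPE* over the 6 arrays were AT2G17710 (Pearson r = 0.993 on the log2 scale), AT1G78780 (0.99) and the plastid gene *accD* (0.989), which encodes a subunit of acetyl-CoA carboxylase. For AT4G21630 they were AT2G14900 (0.994), AT5G60610 (0.985) and AT5G62840 (0.985). For *SCPL20* they were the thionin gene *THI2.1* (0.993), the subtilase gene *SBT1.3* (0.988) and the plastid ribosomal protein gene *rps4* (0.987). *THI2.1* had signals of 3612, 5441 and 5377 in *bp er fil-10* and of 18439, 15208 and 14137 in *bp er*, with replicate 1 lowest in *bp er fil-10* and highest in *bp er*, as in *SCPL20*. For AT1G20150 they were AT4G25550 (0.998), AT1G76250 (0.996) and AT4G01210 (0.994). Each r is over 6 arrays and includes the genotype difference by which the 4 genes were chosen.

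The other members of the same families were not used in that choice and were tested. Their lists were drawn up with earlier results of these data known, so that the tests are not independent of this contrast. In all, 95 other protease and protease inhibitor genes with a named probe set were listed, and 59 of them passed the minimum signal. The inhibitor gene AT2G38900 passed only through its *bp er* arrays, so that the filter itself favoured a lower signal in *bp er fil-10*, and the shares set against all probe sets are those of the other 58. With limma 0 of the 59 were higher and 0 were lower past an adjusted p of 0.05, against 0% and 0.00692% of all probe sets tested. At an unadjusted p under 0.05 the 58 gave 3 higher and 9 lower, which is 5.17% and 15.5%, against 9.78% and 7.06% of all probe sets. When the replicate number was taken as a block, 1 of the 58 was called higher and 1 lower, against 1.6% and 2.13% of all probe sets. These were the subtilase genes *SBT3.12* and *ARA12*. No metacaspase or vacuolar sorting receptor gene had a named probe set, and the 1 seed storage protein gene with one stayed under 100 on all arrays. The median log2 difference of the 58 was −0.02, against 0.06 over all probe sets tested.

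Of the other VPE genes none passed the test. *GAMMA-VPE* (AT4G32940), the main form of vegetative tissues, had a signal of 2480, 2358 and 1199 in *bp er fil-10* and of 1870.5, 2009 and 1399 in *bp er*. Its genotypes overlapped, with the replicate 3 array the lowest in both (log2 difference 0.14, SE 0.29, limma adjusted p = 0.836). *BETA-VPE* (AT1G62710), known for the processing of seed storage proteins, had 137, 106 and 235 in *bp er fil-10* and 197, 172 and 270 in *bp er* (−0.48, SE 0.34, adjusted p = 0.502). *ALPHA-VPE* (AT2G25940) stayed under 100 on all 6 arrays and was not tested. Its signal was 21.2, 16.7 and 14.7 in *bp er fil-10* and 74.8, 68.8 and 14.2 in *bp er*.

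Of 44 other subtilase genes with a named probe set, 22 passed the minimum signal and 22 did not. The log2 differences of the 22 had a median of −0.12 and ran between −0.85 and 0.92, with 10 positive and 12 negative, so that the family spread to both sides of 0. In 3 of the 22 the *bp er fil-10* arrays all lay over the *bp er* arrays, and in 3 under them (13.6% each, against 14.2% and 9.13% of all probe sets). Without the block 2 were higher and 5 lower at an unadjusted limma p under 0.05 (9.09% and 22.7%, against 9.78% and 7.06%). The largest positive difference was that of *SBT3.12* (AT4G21326). It had a signal of 943, 709.5 and 807 in *bp er fil-10* and of 600.2, 393 and 336 in *bp er*, without overlap. The log2 difference was 0.92 (SE 0.23, limma adjusted p = 0.146, and adjusted p = 0.0298 in the blocked fit). This blocked call was lost without both replicate 1 arrays (adjusted p = 0.0668) and without both replicate 2 arrays (0.0666).

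The largest negative difference among these 22 was that of AT1G66210, with a signal of 215, 179 and 203 in *bp er fil-10* and of 356, 406 and 315.5 in *bp er*. It did not pass (−0.85, SE 0.19, limma adjusted p = 0.124, and 0.0599 with the block), although without both replicate 3 arrays the blocked fit gave 0.0195. *ARA12* (AT5G67360), a secreted subtilase needed for the release of seed coat mucilage, had 1817, 1435 and 2110 in *bp er fil-10* and 2514, 2122 and 4187 in *bp er*. Its genotypes did not overlap, although the lowest *bp er* array lay only just above the highest *bp er fil-10* array. The log2 difference was −0.67 (SE 0.26, limma adjusted p = 0.248, and adjusted p = 0.0472 in the blocked fit), a blocked call that was lost without both replicate 1 arrays (0.122) and without both replicate 2 arrays (0.0965). *SBT5.4* (AT5G59810) averaged 934 ± 130.3 in *bp er fil-10* and 636 ± 16.5 in *bp er* (SD, n = 3 each), without overlap. *SBT1.3* (AT5G51750), which did not overlap either, averaged 5147 ± 301 in *bp er fil-10* and 6683 ± 321 in *bp er*. Neither passed either fit (limma adjusted p = 0.172 and 0.201, and 0.0923 and 0.12 with the block). 

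**Figure D3:**
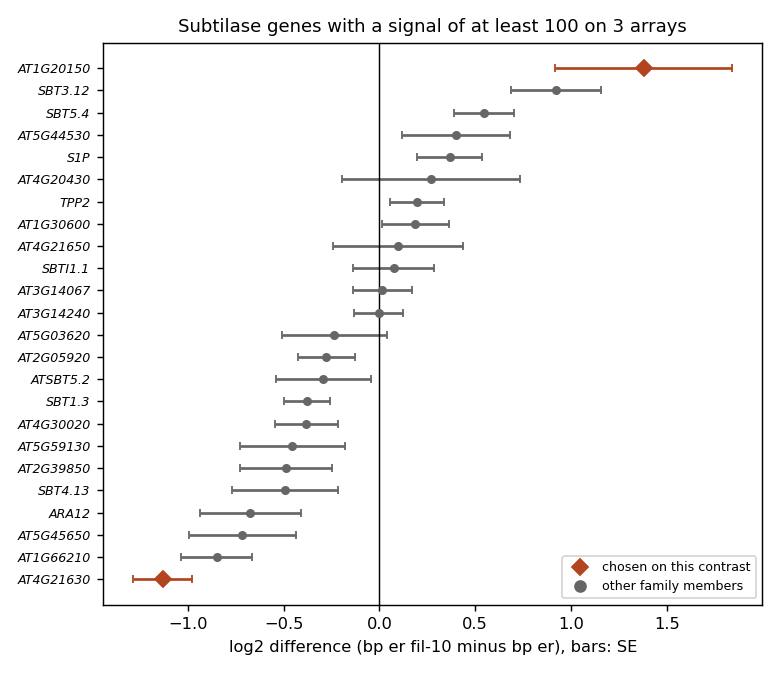
Log2 difference in signal, *bp er fil-10* minus *bp er*, of the 24 subtilase genes that reached a signal of 100 on 3 or more arrays; points are means of 3 arrays per genotype, bars limma's standard error, and orange diamonds the 2 genes chosen on this contrast. The other 22 genes run between −0.85 and 0.92 on both sides of 0.

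Of the subtilase genes nearest to the members on the chromosome, none that was tested passed. AT4G21640 and AT4G21650 follow AT4G21630 in the gene order, and the 3 are a tandem group. AT4G21650 had a signal of 633, 440.2 and 628 in *bp er fil-10* and of 413.5, 373 and 930.3 in *bp er* (0.10, SE 0.34, limma adjusted p = 0.906), and AT4G21640 stayed under 100 on every array. *ATSBT5.2* (AT1G20160), next to AT1G20150, had 222, 287 and 181 in *bp er fil-10* and 279, 222 and 345 in *bp er* (−0.29, SE 0.25, adjusted p = 0.578). In both tandem neighbours that were tested the arrays of the genotypes overlapped. Cross-hybridization between these related sequences was not tested.

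Of 28 other SCPL genes with a named probe set, 17 passed the minimum signal. Their log2 differences had a median of 0.16 and ran between −0.68 and 0.84, with 11 positive and 6 negative. With or without the block limma called 0 of the 17. Without the block 1 was higher and 2 were lower at an unadjusted p under 0.05. These are 5.88% and 11.8%, against 9.78% and 7.06% of all probe sets. *SCPL35* (AT5G08260) had the smallest p. Its signal was 1083, 958 and 988 in *bp er fil-10* and 2267, 1360.3 and 1238 in *bp er*, which did not overlap (−0.63, SE 0.23, adjusted p = 0.227). *SCPL25* (AT3G02110) had 2958, 2265 and 3300 in *bp er fil-10* and 2148, 2243 and 1928 in *bp er*, also without overlap and in the other direction (0.42, SE 0.17, adjusted p = 0.268). *SCPL50* (AT1G15000) averaged 212 ± 74.5 in *bp er fil-10* and 314 ± 32.8 in *bp er*, and *SCPL41* (AT5G42230) averaged 271 ± 97.2 in *bp er fil-10* and 417 ± 85.6 in *bp er* (SD, n = 3 each; limma adjusted p = 0.291 and 0.303). 

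**Figure D4:**
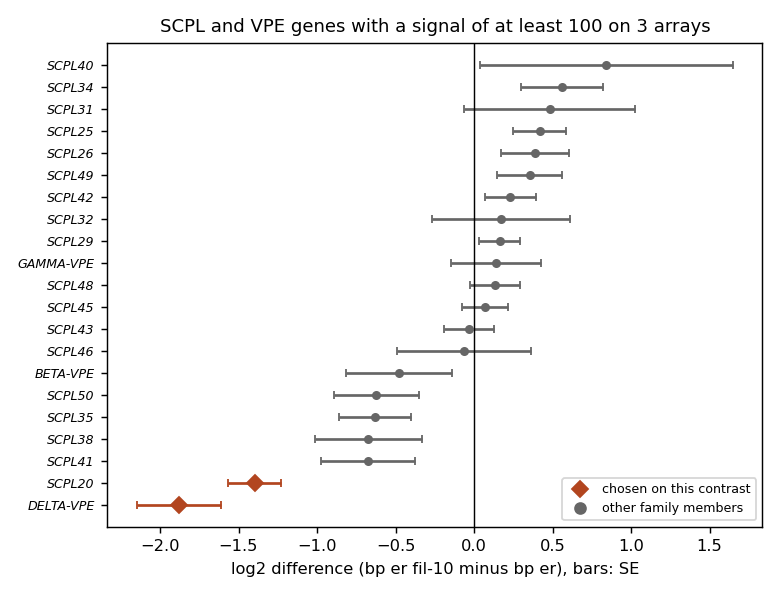
Log2 difference in signal, *bp er fil-10* minus *bp er*, of the SCPL and VPE genes that reached a signal of 100 on 3 or more arrays; points are means of 3 arrays per genotype, bars limma's standard error, and orange diamonds *SCPL20* and *DELTA-VPE*, which were chosen on this contrast. The other 17 SCPL genes lie between −0.68 and 0.84, and *BETA-VPE* and *GAMMA-VPE* at −0.48 and 0.14.

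No gene of another protease class passed. All 8 papain-like cysteine protease genes that were listed and named passed the minimum signal, and their log2 differences ran between −0.43 and 0.45 with 0 called by limma in either fit. At an unadjusted p under 0.05 there were 0 without the block, and with it AT1G02300 alone, whose arrays overlapped (0.45, limma adjusted p = 0.565, and 0.151 with the block). In AT3G19400 the *bp er fil-10* arrays, at 258, 190 and 237, lay below the *bp er* arrays, at 347, 305 and 268.5 (−0.43, limma adjusted p = 0.319). The aspartic protease genes *APA1* (AT1G11910) and AT4G04460 differed by −0.15 and 0.05, with overlapping arrays (adjusted p = 0.588 and 0.882).

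Of the 7 protease inhibitor genes besides AT2G38900 that were tested, 5 had a negative log2 difference, and in 2 all *bp er fil-10* arrays lay under the *bp er* arrays (28.6%, against 9.13% of all probe sets). These were *SERPIN1* and AT5G47550. AT2G38900, which encodes a serine protease inhibitor of the potato inhibitor I type, had a signal of 3.1, 79.2 and 3.2 in *bp er fil-10* and of 848, 536 and 195 in *bp er*. With signals under 100 raised to 100 the log2 difference was −2.16 or more negative. The gene met the minimum signal only through its *bp er* arrays, which fixed that its genotypes did not overlap, and it is on the lists that the study drew from these arrays. Its values are therefore a description, with no test. *SERPIN1* (AT1G47710), an inhibitor of cysteine proteases, had 1632, 1811 and 1545 in *bp er fil-10* and 2151, 2107 and 2408 in *bp er* (−0.42, SE 0.14, adjusted p = 0.211, and 0.142 with the block). The cystatin gene AT5G47550 had 1526, 1116 and 1498 in *bp er fil-10* and 1831, 1790.3 and 3132 in *bp er* (−0.67, SE 0.24, adjusted p = 0.227, and 0.0678 with the block). AT2G38870 differed by 0.31 and the cystatin gene *CYS1* by −0.05, both with overlapping arrays (limma adjusted p = 0.672 and 0.878).

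Genes listed for the ovule integuments and seed coat, where *DELTA-VPE* is known to act, were examined beside it. Whether the listed genes mark these tissues at the floral stages sampled was not tested. Of 15 listed, 3 had a named probe set. *DFR* (AT5G42800), the dihydroflavonol reductase of flavonoid synthesis, had 70.7, 249 and 76.0 in *bp er fil-10* and 1107, 720.2 and 722 in *bp er*. *BAN* (AT1G61720), the anthocyanidin reductase of the seed coat endothelium, had 66.0, 232 and 7.6 in *bp er fil-10* and 646, 442 and 178 in *bp er*. The log2 difference of *DFR* was −2.92 (SE 0.46, limma adjusted p = 0.0945, and 0.00966 in the blocked fit). With signals under 100 raised to 100 it was −2.62 or more negative. The log2 difference of *BAN*, whose genotypes overlapped, was −2.92 (SE 1.09, limma adjusted p = 0.236, and 0.0329 in the blocked fit). Raised in the same way, it was −1.49 or more negative. Without both replicate 1 arrays the blocked call of *BAN* was lost (0.132). *INO* (AT1G23420), a YABBY gene of the outer integument, had 154, 223 and 170 in *bp er fil-10* and 238, 125 and 117 in *bp er*, which overlapped (0.25, adjusted p = 0.730). The summed signal of the 3 genes ran between 254 and 704.5 in *bp er fil-10* and between 1017 and 1991 in *bp er*. In *bp er* the sum came mostly from *DFR* and *BAN*, whereas *INO* had a higher mean in *bp er fil-10*. Since each probe set has its own response, nothing is read from the sum. In *bp er fil-10*, replicate 2 was the highest array for all 3 genes, whereas for *DELTA-VPE* it was replicate 1. *DFR* and *BAN* are on the lists that the study drew from these arrays, so their p-values are a description and nothing rests on them. *DELTA-VPE* and *DFR* were both picked on this contrast, so that nothing is read from their being lower on the same 3 arrays. The part of these tissues in the difference of *DELTA-VPE* was not tested. The nectary gene *SWEET9* was also lower on every *bp er fil-10* array, at 646, 369 and 777, than on the *bp er* arrays, at 1061, 842 and 2711 (−1.24, adjusted p = 0.225, and 0.0217 with the block), and its part was not tested either. *SWEET9* is on those lists too, and its p-values are likewise a description. Of 4 pollen genes listed, 2 had a named probe set. *ACT11* had 865, 917 and 1782.5 in *bp er fil-10* and 1604, 1628 and 2347 in *bp er*, which overlapped (−0.71, limma adjusted p = 0.272, and 0.0459 with the block, which was lost without both replicate 1 arrays at 0.243 and without both replicate 2 arrays at 0.161), and *TUA1* differed by −0.22. The part of pollen was not tested.

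**Figure D5:**
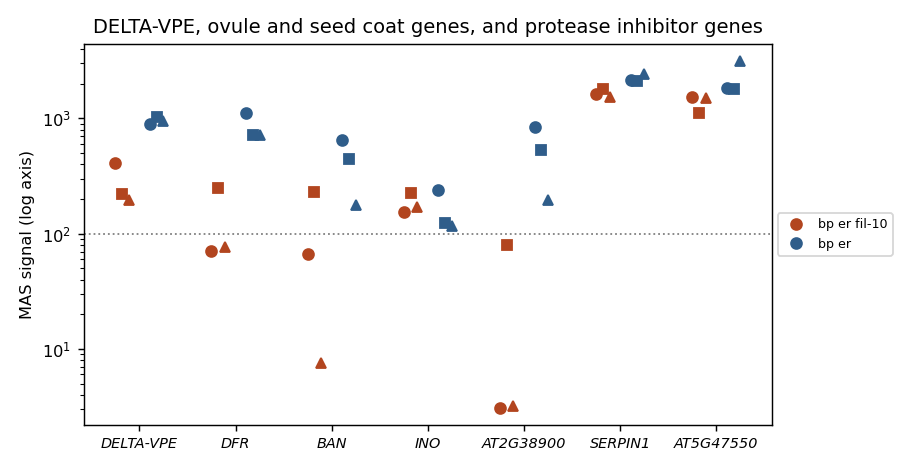
MAS signal (log axis) on each array of *DELTA-VPE*, *DFR*, *BAN*, *INO*, AT2G38900, *SERPIN1* and AT5G47550. *DFR*, *BAN* and *INO* were listed for ovule and seed coat, and AT2G38900, *SERPIN1* and AT5G47550 are protease inhibitor genes. Orange is *bp er fil-10* and blue is *bp er*. Circles, squares and triangles are replicates 1, 2 and 3, and the dotted line is a signal of 100. *BAN* and *INO* overlap between genotypes, and the other 5 genes lie lower on every *bp er fil-10* array. The inhibitor genes that overlap between genotypes are not plotted. *DELTA-VPE* and *DFR* were picked on this contrast, and the filter fixed the lack of overlap of AT2G38900, so that nothing is read from the count.

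The genes around *SCPL20* were looked at as well. Within 5 genes on either side, 4 had a named probe set. AT4G12890, of the GILT thiol reductase family, had a signal of 894, 696 and 779 in *bp er fil-10* and of 2431, 2503 and 1716 in *bp er* (−1.48, SE 0.19, limma adjusted p = 0.0590, and 0.00811 with the block). *GILT* (AT4G12960) had 5246, 7375 and 4571.5 in *bp er fil-10* and 18411, 16762 and 15594 in *bp er* (−1.59, SE 0.18, adjusted p = 0.0526, and 0.00411 with the block). In both genes the genotypes did not overlap. AT4G12930 lay on the other side, with 192, 172 and 159 in *bp er fil-10* and 68.0, 106 and 24.2 in *bp er*. Its log2 difference was 1.64 (SE 0.56, limma adjusted p = 0.214), and at least 0.77 with signals under 100 raised to 100. *UND* (AT4G12920), an aspartic protease gene next to *SCPL20*, stayed under 100 on all arrays. Around *DELTA-VPE*, AT4G21630 and AT1G20150, 0 of the neighbours tested was called by limma in either fit, and 0 had an unadjusted p under 0.05. AT4G12890 and *GILT* are on the lists that the study drew from these arrays, so their p-values are a description and nothing rests on them. This look at neighbours was added after the values were seen.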

How the data were processed

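The deposited values are MAS signal intensities on a linear scale. The authors made them with GCOS from Affymetrix ATH1 arrays and scaled each array with 1 linear factor to a target of 500; no version is given in the sources used here, and detection calls were not used here. The median signal per array was 203, 215 and 213 in *bp er fil-10* and 202, 211 and 193 in *bp er*, and the number of arrays limits the precision.

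Control probe sets (64) were left out, 1 signal of 0 was raised to 0.1, and signals were converted to log2. The 14456 probe sets that reached 100 on 3 or more of the 6 arrays were tested with limma 3.58.1 (R 4.3.3; lmFit and eBayes with an intensity trend), 2-sided, with Benjamini-Hochberg adjustment over all of them, and a call needed an adjusted p under 0.05. The fit was checked on simulated data. These held no effect of replicate number, so that the check does not cover the pairing of arrays. Deviations of same-numbered arrays correlated at 0.103, 0.221 and 0.380. All exceed 0.1, the limit set for treating same-numbered arrays as pairs; the first is barely so, and the *bp er* arrays of replicates 1 and 2 each correlated more with the other number (0.183 and 0.225). A fit blocked on replicate number is therefore given where it changes a call.

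Of the probe sets, 13436 were assigned to 1 gene through the array annotation and the TAIR10.1 gene table, 7812 of them among those tested; the rest are unnamed here. The members and gene lists were chosen with earlier results of these data known. Named are the members, all VPE genes, up to 4 genes of each list by the smallest p, and every list gene called in either fit. List genes called with both arrays of 1 number left out, some neighbours on the chromosome and *CYS1* are named as well. So are the 3 genes most alike to each member by Pearson correlation. Relatives by protein identity were not used here. Tables were made with Python 3.11.15 and pandas 2.3.3. Alternatives were the block, quantile and median scaling, other filters, raised signals, no trend and leaving out arrays.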

Additional observations from a re-analysis of the deposited data

How the results depend on the processing

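The log2 differences of *DELTA-VPE*, AT4G21630, *SCPL20* and AT1G20150 kept their direction, and moved by less than the SD between arrays, in 4 settings. These were quantile normalization, centring on the median, raising signals under 100 to 100, and the ratio of the mean signals. The replicate block cannot change these differences, because each number has 1 array per genotype. With 1 array left out the differences ran between −2.20 and −1.67, −1.19 and −1.08, −1.46 and −1.31, and 0.91 and 1.85. The genes were chosen on this contrast, so that nothing is read from their kept direction. Over all probe sets limma called 0 higher and 1 lower. It called 232 and 308 with the replicate block, 1 and 14 with each array centred on its median, 1 and 17 with signals under 100 raised to 100, and 0 lower (933 at an unadjusted p under 0.05) where all 6 arrays had to reach 100. With 1 array left out it called 0 to 41 higher and 1 to 82 lower, the most without *bp er fil-10* replicate 3. Among the 59 other protease and inhibitor genes it called 0 and 0, and 1 and 2 with the block; every setting without a block gave 0 in both directions. The block with both arrays of 1 number left out was chosen after seeing the data. It called 34 and 61 probe sets without replicate 1, 85 and 114 without replicate 2, and 733 and 820 without replicate 3, and among the 59 genes 0 and 0, 0 and 0, and 3 and 7. The 3 were *SBT3.12*, *SCPL34* and *SCPL31*, and the 7 were AT2G38900, *SCPL35*, *SCPL38*, AT1G66210, *ARA12*, AT5G45650 and *SBT4.13*. Nothing is read from these names, since without replicate 3 the blocked fit called 733 and 820 of all 14456 probe sets tested. The counts of lower genes with the block include AT2G38900, which passed the filter through *bp er* alone. The cause of these shifts was not tested. Low signal limits AT1G20150, AT2G38900, *DFR*, *BAN* and AT4G12930, whose values under 100 are imprecise.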
